A study of Homo sapiens with 16 samples.

Results

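The ETS factors ELF3, EHF, SPDEF, ELF1, ETV1, ETV4, ETS1, ETS2, ERF and ERG are 10 of the 62703 genes counted in spheroids of 3 prostate cancer cell lines. They were taken by gene name from the deposited count table and were chosen by what was already known of the data, namely that ELF3 fell with MED12 knockdown in LNCaP and in 22Rv1. The values of the 10 genes in those 2 contrasts are therefore given as a description, without a test. The knockdown in PC3 and the differences between control groups were not used in the choice and were tested.

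LNCaP is a line from a lymph node metastasis that responds to androgen, 22Rv1 comes from a xenograft that grew back after castration, and PC3 is an androgen-independent line from a bone metastasis. Every culture received 25 pmol of a small interfering RNA pool, either a non-targeting pool (siCtrl) or a pool against MED12 (siMED12), a subunit of the Mediator complex that carries signals from transcription factors to RNA polymerase. After 3 days in 2D the cells were moved to low-attachment plates and collected as spheroids 4 days later. The 16 libraries comprised 3 siCtrl libraries of each line, 3 siMED12 libraries of LNCaP and 2 siMED12 libraries each of 22Rv1 and PC3, numbered replicate 1 and 3. Each line is a single established line without an engineered change, and knockdown by RNA interference leaves part of the target RNA in place.

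ETS factors share a DNA-binding domain that recognizes a GGAA core, and most of them act at the end of growth factor and ERK signaling. ELF3, EHF and SPDEF are epithelial members found in glandular tissue, whereas ETV1 and ETV4 belong to the PEA3 group, which is linked to invasion and is rearranged in some prostate tumors. ETS1 and ETS2 are activated by ERK phosphorylation, ERF is a repressor that ERK drives out of the nucleus, and ERG is best known for its fusion to an androgen-driven promoter in prostate cancer.

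The libraries held 479118 to 993807 counts of 3′ tags. Levels are given as CPM, counts relative to the library total scaled by the trimmed mean of M values. Since 1 tag is read from the 3′ end of a transcript, they do not grow with its length. A gene with 0 counts could still have had up to 3, or 3.15 to 6.22 CPM depending on the library, which covers counting error only. MED12 itself was at 5 to 22 counts in every library. The LNCaP means were 11.5 CPM for the non-targeting pool against 8.004 CPM for siMED12, those of 22Rv1 19.8 against 8.20 CPM and those of PC3 18.5 against 15.2 CPM, and none of these differences passed the test (edgeR adjusted p = 0.88, 0.18 and 0.99). The study reports, in a supplementary figure, that MED12 knockdown in the spheroids was highly efficient. At 5 to 22 counts per library, the present data measure the fall of MED12 poorly. The 5 markers of LNCaP and 22Rv1 (KLK3, KLK2, FOLH1, TMPRSS2 and HOXB13) summed to 5534 to 6256 CPM in LNCaP, 438 to 471 CPM in 22Rv1 and 88.3 to 136 CPM in PC3 siCtrl libraries. In PC3 siMED12 libraries the same sum was 73.9 to 207 CPM. The 6 PC3 markers (VIM, CAV1, CAV2, AXL, CD44 and TGFBI) summed to 1584 to 1728 CPM in PC3, 63.0 to 146 CPM in LNCaP and 89.8 to 102 CPM in 22Rv1, with 1 marker at 0 in each of the latter lines. Counts of 18 genes restricted to PC3 stood at 4.64% of their PC3 level in 22Rv1 siMED12 replicate 3, against 0.389% to 1.69% in the other libraries of LNCaP and 22Rv1. Where these counts came from was not tested.

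Of the 10 members, 8 passed the filter on low counts, which kept 10566 genes. ETS1 and ERG did not pass. ERG had 0 counts in all 16 libraries. ETS1 was detected mainly in PC3, with 3, 6 and 3 counts in siCtrl and 9 and 6 counts in siMED12. In the other lines ETS1 had 1 count in a single LNCaP siMED12 library and 0 counts elsewhere.

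The ELF3 gene (chr1:202007945-202017183, + strand, GRCh38, Gencode 44) was the member for which the set was assembled. RefSeq places its start 2642 bases downstream of the first base of the Gencode gene, so that the 250 bases before the RefSeq start (chr1:202010337-202010586) lie in the untranslated first exon of a longer annotated ELF3 transcript and partly in an exon of ELF3-AS1 on the other strand. RefSeq promoter entries matched 8 of the 10 members, all but ETV4 and ETS1. Short stretches around the motif matches of ELF3 and of SPDEF, which have 1 RefSeq start each, are shown to compare an epithelial member that fell with one that did not. Capitals mark the ETS core GGAA or its reverse complement, the TATA box TATAAA, and the NF-kB consensus, all searched on both strands, and positions are counted back from the base before the start as -1.
ELF3, -185 to -156 (chr1:202010402-202010431, + strand): agccgggcctgatTTCCcagcactgcctgc
ELF3, -98 to -69 (chr1:202010489-202010518, + strand): ctaaaggccaGGAAATCCCCtccatccaat
ELF3, -46 to -17 (chr1:202010541-202010570, + strand): caggggacacacTATAAAgccctgagctca
SPDEF, -44 to -15 (chr6:34556344-34556373, - strand): taaGGAAggattacttataatgGGAAatca

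The ELF3 stretch held 2 ETS cores, 1 TATA box and 1 NF-kB consensus match, and the last of these overlapped the ETS core at -88. SPDEF also held 2 ETS cores, at -41 and -22, but neither a TATA box nor an NF-kB match. Among 35116 RefSeq promoters of the same length, 92.7% held an ETS core, 10.7% a TATA box and 12.3% an NF-kB match. None of the matches is evidence of binding.

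In siCtrl spheroids the levels of the ETS factors differed widely between the lines, as the plot of siCtrl levels shows. Of the 8 tested members, 7 differed between 22Rv1 and LNCaP (4 higher and 3 lower in 22Rv1), 6 between PC3 and LNCaP (2 higher and 4 lower in PC3) and 5 between PC3 and 22Rv1 (3 higher and 2 lower in PC3). These lines differ in a large part of the transcriptome. Of all tested genes, 22.0% were higher and 21.2% lower in 22Rv1 than in LNCaP, 29.2% higher and 25.5% lower in PC3 than in LNCaP, and 28.7% higher and 26.1% lower in PC3 than in 22Rv1. The p-values below are those of the edgeR quasi-likelihood test, adjusted over all tested genes, and values after ± are standard errors (SE) of a log2 difference.

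**Figure D1:**
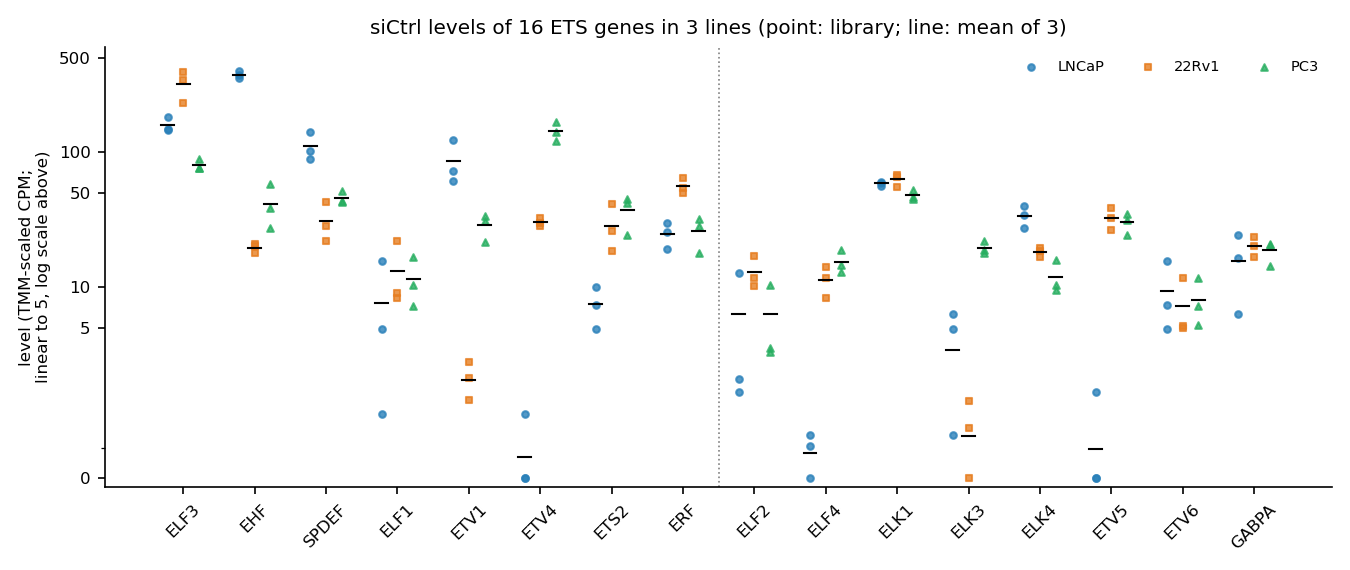
Levels of 16 ETS genes in siCtrl spheroids, in CPM on an axis that is linear up to 5 and logarithmic above; points are libraries, black lines the means of 3, colors the lines, and the dotted line separates the 8 tested members from 8 other ETS genes. EHF, SPDEF and ETV1 were highest in LNCaP, ELF3 and ERF in 22Rv1 and ETV4 in PC3.

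ELF3 was highest in 22Rv1, where the siCtrl libraries stood at 233, 339 and 390.1 CPM. LNCaP siCtrl libraries stood at 147, 146 and 183 CPM and PC3 siCtrl libraries at 76.1, 76.8 and 89.6 CPM. The groups did not overlap in any pair of lines. On the log2 scale ELF3 was 1.00 ± 0.16 higher in 22Rv1 than in LNCaP (adjusted p = 5.8e-06), whereas the log2 difference of PC3 was -0.99 ± 0.18 to LNCaP (adjusted p = 3.0e-05) and -1.99 ± 0.17 to 22Rv1 (adjusted p = 2.0e-11).

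EHF (chr11:34621093-34663288, + strand), the closest relative of ELF3 among the epithelial members, showed another order. It stood at 399, 371 and 351 CPM in LNCaP, at 20.8, 20.1 and 17.96 CPM in 22Rv1 and at 58.1, 38.9 and 27.5 CPM in PC3. LNCaP was thus far above the other lines, and every PC3 library was above every 22Rv1 library. The log2 difference of EHF to LNCaP was -4.24 ± 0.22 in 22Rv1 (adjusted p = 4.2e-16) and -3.15 ± 0.19 in PC3 (adjusted p = 3.9e-15), and EHF was 1.08 ± 0.30 higher in PC3 than in 22Rv1 (adjusted p = 0.0030).

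SPDEF (chr6:34537802-34556333, - strand), which drives secretory differentiation, was also highest in LNCaP, at 89.5, 102 and 141 CPM. It stood at 42.9, 28.4 and 21.8 CPM in 22Rv1 and at 51.6, 43.1 and 43.4 CPM in PC3. The log2 difference to LNCaP was -1.85 ± 0.23 in 22Rv1 (adjusted p = 7.3e-08) and -1.29 ± 0.21 in PC3 (adjusted p = 3.7e-06). PC3 and 22Rv1 did not differ beyond the threshold, although every PC3 library was above every 22Rv1 library (0.56 ± 0.26 higher, adjusted p = 0.073). Without 22Rv1 siCtrl replicate 1 this difference was 0.88 and passed (adjusted p = 0.016). ELF1 (chr13:40931924-41061440, - strand), a broadly expressed member, was low in every library, with 2 to 17 counts. Its means of 7.62 CPM in LNCaP, 13.1 CPM in 22Rv1 and 11.5 CPM in PC3 could not be ordered, since the groups overlapped and no difference passed the test (adjusted p = 0.20 for 22Rv1 and 0.28 for PC3 against LNCaP, and 0.79 for PC3 against 22Rv1). Without LNCaP siCtrl replicate 2, which held 11 of the 16 LNCaP counts, ELF1 was higher than in LNCaP by 2.02 in 22Rv1 (adjusted p = 0.023) and by 1.84 in PC3 (adjusted p = 0.032).

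The PEA3 members followed different orders between the lines. ETV1 (chr7:13891229-13991425, - strand), whose gene is rearranged in LNCaP cells, stood at 72.9, 61.6 and 123 CPM in LNCaP, at 2.60, 3.34 and 3.85 CPM in 22Rv1 and at 31.0, 33.6 and 21.7 CPM in PC3. The 22Rv1 values rest on 2, 2 and 3 counts. The log2 difference of ETV1 to LNCaP was -4.69 ± 0.42 in 22Rv1 (adjusted p = 7.5e-11) and -1.59 ± 0.26 in PC3 (adjusted p = 4.5e-06), and ETV1 was 3.10 ± 0.52 higher in PC3 than in 22Rv1 (adjusted p = 7.7e-06). ETV4 (chr17:43527844-43579620, - strand) was highest in PC3, at 168, 141 and 121 CPM, against 32.5, 30.1 and 28.2 CPM in 22Rv1. LNCaP siCtrl libraries had 0, 0 and 2 ETV4 counts. The ratio of ETV4 levels to LNCaP was 162 in PC3 (counting interval 44.4 to 1339) and 34.0 in 22Rv1 (counting interval 9.04 to 287), and both differences passed the test (adjusted p = 1.1e-17 and 8.3e-09). Between PC3 and 22Rv1, where both levels were well counted, ETV4 was 2.24 ± 0.21 higher in PC3 (adjusted p = 1.5e-11). DHX8 overlaps ETV4 on the opposite strand, but had only 2 to 20 counts in a library.

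ETS2 (chr21:38805183-38824955, + strand) stood at 4.97, 10.0 and 7.42 CPM in LNCaP, at 26.0, 18.4 and 41.1 CPM in 22Rv1 and at 45.2, 42.1 and 24.6 CPM in PC3. It was higher than in LNCaP by 1.93 ± 0.40 in 22Rv1 (adjusted p = 0.00023) and by 2.30 ± 0.37 in PC3 (adjusted p = 4.5e-06), and the latter lines overlapped (adjusted p = 0.27). ERF (chr19:42247569-42255128, - strand) was highest in 22Rv1, at 54.7, 50.1 and 64.2 CPM. It stood at 29.8, 25.8 and 19.1 CPM in LNCaP and at 28.4, 17.9 and 31.8 CPM in PC3, which overlapped (log2 difference 0.07, 95% interval -0.52 to 0.66, adjusted p = 0.86). ERF was 1.22 ± 0.25 higher in 22Rv1 than in LNCaP (adjusted p = 0.00020) and lower in PC3 than in 22Rv1 (log2 difference -1.16 ± 0.25, adjusted p = 0.00019). ETS1 (chr11:128458761-128587558, - strand) and ERG (chr21:38380027-38661780, - strand) had too few counts for this test.

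With MED12 knockdown, ELF3 was the member whose fall the choice rested on. In LNCaP its level was 147, 146 and 183 CPM with siCtrl and 74.1, 64.1 and 58.6 CPM with siMED12, so that every knockdown library was below every control. The log2 fold change was -1.29 ± 0.19, which is a change of -59.2% in level. In 22Rv1 its level was 233, 339 and 390.1 CPM with siCtrl and 193 and 172 CPM with siMED12, again without overlap. The log2 fold change was -0.81 ± 0.17, a change of -42.9%. These values rest on 48 to 304 ELF3 counts per library. The fold change in 22Rv1 was -0.79 once the counts of PC3, as estimated from the PC3-restricted genes, were subtracted. It was -0.73 without siMED12 replicate 3, the library with the highest share of PC3-restricted genes. Counts of LNCaP were not estimated or subtracted, since 0 genes were restricted to that line by the same limits. Spheroids with fewer ELF3-expressing cells and cells with less ELF3 RNA cannot be told apart in these bulk libraries. Line markers moved with the knockdown as well. In LNCaP the 5 markers of LNCaP and 22Rv1 summed to 3698 to 4745 CPM with siMED12, below the 5534 to 6256 CPM of siCtrl, with 1 of 5 called, KLK2, a kallikrein of prostate epithelium (log2 fold change -0.89 ± 0.18, adjusted p = 0.011, and 1.0 with DESeq2). KLK2 did not pass without control replicate 2 (-0.79) or 3 (-0.86) or knockdown replicate 2 (-0.71). In 22Rv1 the same sum was 436 to 509 CPM with siMED12 and 438 to 471 CPM with siCtrl, but its parts moved in both directions. KLK3 was lower with siMED12, at 10.3 to 11.7 CPM against 24.7 to 35.1 CPM. KLK2 was lower too, at 20.15 to 26.9 CPM against 51.8 to 60.3 CPM. FOLH1 was higher, at 186 to 231 CPM against 155 to 177 CPM, while TMPRSS2 and HOXB13 overlapped. None of these 5 markers was called in 22Rv1. The 6 PC3 markers summed there to 116 to 181 CPM with siMED12 against 89.8 to 102 CPM with siCtrl, with 1 of 5 tested called, CAV1, a caveolin (1.64 ± 0.31, adjusted p = 0.0021, and 0.013 after the subtraction). Without knockdown replicate 3 CAV1 was at 1.22 and did not pass (adjusted p = 0.12). In LNCaP the PC3 markers summed to 41.4 to 113 CPM with siMED12 against 63.0 to 146 CPM. The part of these markers in the ELF3 values was not tested.

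**Figure D2:**
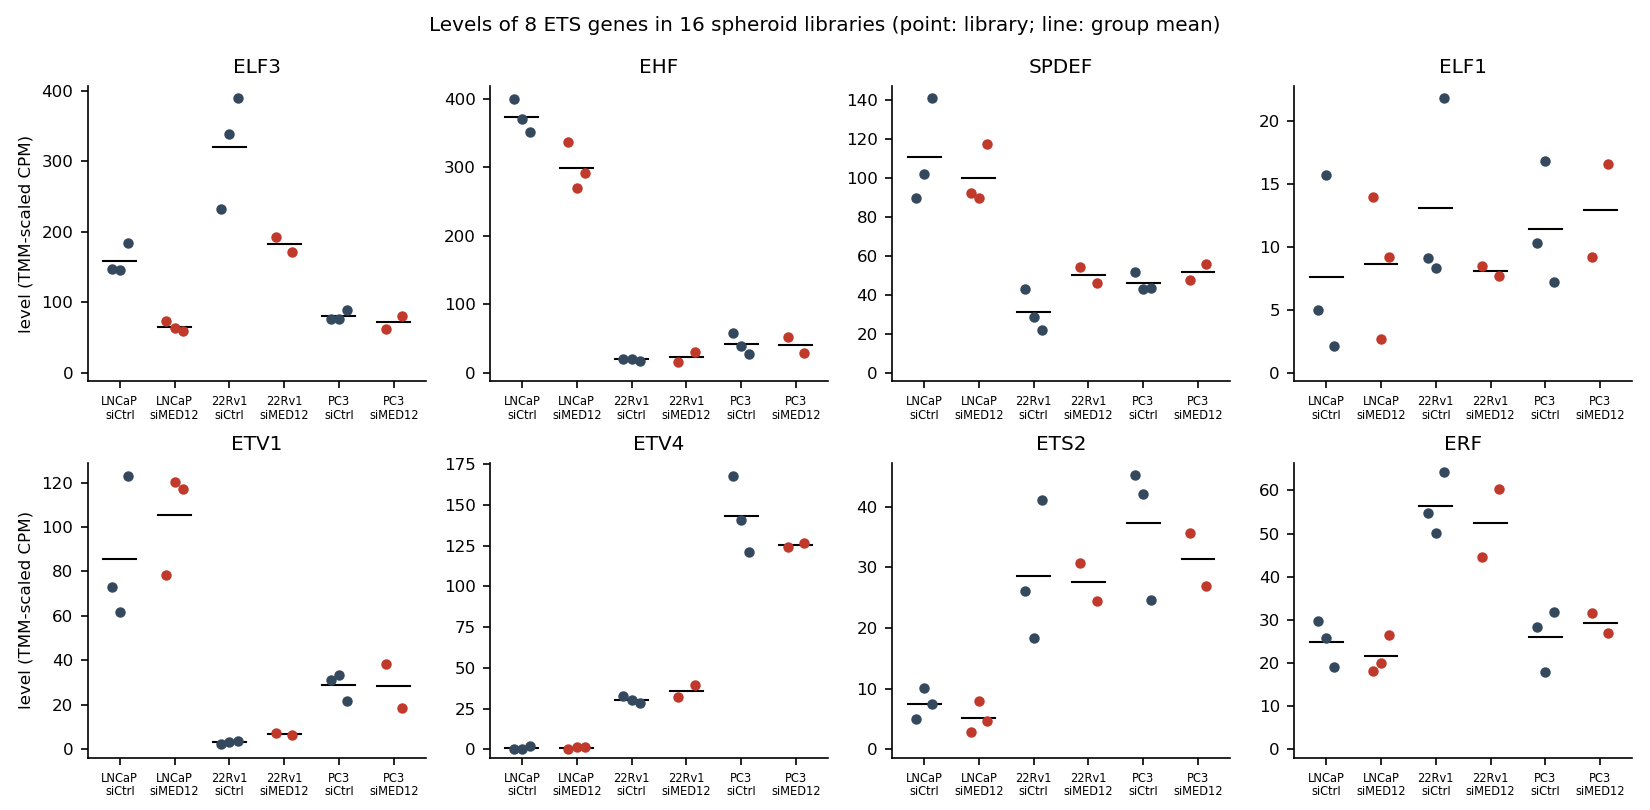
Level of each of the 8 tested members in every library, in CPM on linear axes that differ between panels; dark points are siCtrl, red points siMED12 libraries, and lines group means. ELF3 shows no overlap between siMED12 and siCtrl in LNCaP and in 22Rv1, while its PC3 groups overlap.

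That ELF3 is counted as called in LNCaP and in 22Rv1 (1 of 8 tested members each) is fixed by the choice and is no test of it. For scale, 0.369% of all tested genes were called lower and 0.0473% higher in LNCaP, and 0.842% lower and 0.994% higher in 22Rv1. The ELF3 log2 fold change in 22Rv1 was -0.64 without control replicate 3, and -0.91 and -0.73 without knockdown replicate 1 and 3, and in these 3 fits it lay outside the threshold. The median log2 fold change of the 8 members was -0.16 in LNCaP and 0.07 in 22Rv1, where the medians of all tested genes were -0.0038 and 0.0061.

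EHF in LNCaP moved in the direction of ELF3 but by less. It stood at 399, 371 and 351 CPM with siCtrl and at 337, 270 and 291 CPM with siMED12, which did not overlap, and its log2 fold change was -0.32 ± 0.15. In 22Rv1 the low EHF levels overlapped, at 20.8, 20.1 and 17.96 CPM with siCtrl and 15.9 and 30.8 CPM with siMED12 (log2 fold change 0.22 ± 0.37). This value turned to -0.30 without siMED12 replicate 3.

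SPDEF lay on the other side in 22Rv1. Its levels there were 42.9, 28.4 and 21.8 CPM with siCtrl and 54.1 and 46.2 CPM with siMED12, without overlap, and the log2 fold change was 0.69 ± 0.28. In LNCaP SPDEF overlapped between the groups, at 89.5, 102 and 141 CPM and at 92.3, 89.4 and 117 CPM (log2 fold change -0.17 ± 0.18, and 0.067 without siCtrl replicate 3). The 3 epithelial members thus had negative estimates in LNCaP, while in 22Rv1 ELF3 was lower, EHF was within its spread and SPDEF was higher, and these differences between genes were not tested.

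Among the PEA3 members ETV1 in 22Rv1 did not overlap between the groups, at 2.60, 3.34 and 3.85 CPM with siCtrl and 7.42 and 6.41 CPM with siMED12, but these are 2 to 7 counts per library and the log2 fold change of 1.06 had an SE of 0.78. In LNCaP, where ETV1 was high, its levels were 72.9, 61.6 and 123 CPM with siCtrl and 78.3, 120.1 and 117 CPM with siMED12, which overlapped (log2 fold change 0.26 ± 0.21). ETV4 in 22Rv1 was at 32.5, 30.1 and 28.2 CPM with siCtrl and 31.8 and 39.8 CPM with siMED12 (log2 fold change 0.23 ± 0.29). In LNCaP ETV4 had 2 counts over the siCtrl group and 2 over the siMED12 group, so no fold change is given.

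ELF1, ETS2 and ERF overlapped between siCtrl and siMED12 in LNCaP and in 22Rv1. Their log2 fold changes were 0.25 ± 0.61, -0.54 ± 0.58 and -0.15 ± 0.30 in LNCaP, and -0.72 ± 0.59, -0.07 ± 0.33 and -0.13 ± 0.24 in 22Rv1. The ELF1 estimate in 22Rv1 rested on siCtrl replicate 3, at 21.8 CPM against 9.11 and 8.36 CPM in the other controls, and was -0.12 without it. Leaving out single libraries also moved the LNCaP estimates, from -0.32 (without siCtrl replicate 3) to 1.38 (without siCtrl replicate 2) for ELF1, from -0.97 (without siMED12 replicate 2) to -0.27 (without siMED12 replicate 1) for ETS2 and from -0.34 (without siCtrl replicate 3) to 0.0052 (without siCtrl replicate 1) for ERF. In 22Rv1 ETS2 ran from -0.28 to 0.29 and ERF from -0.35 to 0.073.

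**Figure D3:**
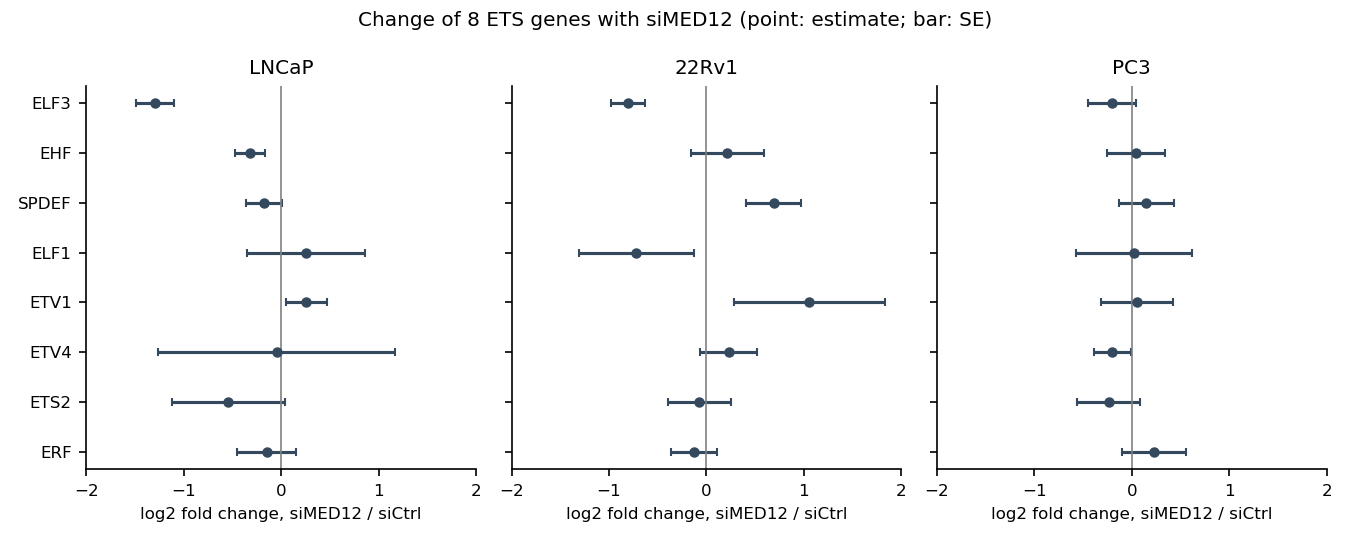
Log2 fold change of siMED12 against siCtrl for the 8 tested members in each line; points are estimates of the fit and bars the SE. ELF3 lies at -1.29 in LNCaP and -0.81 in 22Rv1, and the PC3 estimates run from -0.24 to 0.23.

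In PC3, which the choice did not use, no member passed the test, and neither did any other gene (0% of 10566 genes higher and 0% lower with edgeR and 0 genes with DESeq2). An unadjusted edgeR p under 0.05 was found for 527 of the 10566 genes, about the share that this limit gives with no effect. With same-numbered libraries fitted as pairs (a replicate block) 20 genes were called in PC3, none of them a member. ELF3 stood at 76.1, 76.8 and 89.6 CPM with siCtrl and 62.0 and 80.9 CPM with siMED12. The groups overlapped, and the log2 fold change of -0.20 had a 95% interval of -0.70 to 0.29 (adjusted p = 0.98). Whether the ELF3 change differed between the lines was not tested. The other 7 members had log2 fold changes from -0.24 (ETS2, 95% interval -0.90 to 0.42) to 0.23 (ERF, 95% interval -0.44 to 0.89), and every PC3 interval included 0. For ETV4, which was highest in this line, the levels were 168, 141 and 121 CPM with siCtrl and 124 and 127 CPM with siMED12, with an interval of -0.59 to 0.19. SPDEF, which was higher with siMED12 in 22Rv1, was at 51.6, 43.1 and 43.4 CPM and at 47.5 and 56.0 CPM in PC3 (log2 fold change 0.15, 95% interval -0.42 to 0.72). ETS1 stood at 3.87, 6.31 and 4.34 CPM with siCtrl and at 11.9 and 12.4 CPM with siMED12, a ratio of 2.44 with a counting interval of 1.07 to 5.70. When all genes with a count were fitted, this difference did not pass the test (log2 fold change 1.27 ± 0.62, adjusted p = 1.0).

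The other 18 ETS genes of the human genome were read in the same way, and 8 of them passed the filter. None was called with siMED12 in any line, and their log2 fold changes ran from -0.83 to 0.83 in LNCaP, -0.93 to 0.67 in 22Rv1 and -0.41 to 1.28 in PC3. The ends of the LNCaP range were ETV5 (2 counts over siCtrl and 1 over siMED12) and ELF4 (2 and 4 counts). The upper end in 22Rv1 was ELK3 (3 and 4 counts), and these ends rest on too few counts to be read. Between siCtrl groups, 3 were called for 22Rv1 against LNCaP (2 higher, 1 lower), 4 for PC3 against LNCaP (3 higher, 1 lower) and 1 for PC3 against 22Rv1 (higher). ETV5, the remaining PEA3 gene, had 2 counts over the LNCaP siCtrl libraries against 71 in 22Rv1 and 73 in PC3, a ratio of levels of 37.1 (counting interval 9.91 to 313) and 33.9 (counting interval 9.05 to 285) to LNCaP. ELF4 was likewise at 2 counts in LNCaP and at 25 in 22Rv1 and 37 in PC3. ELK4, a partner of serum response factor, was lower than in LNCaP by a log2 difference of -0.86 ± 0.30 in 22Rv1 (adjusted p = 0.022) and -1.50 ± 0.33 in PC3 (adjusted p = 0.00024). The ELK4 difference of 22Rv1 did not pass with DESeq2 (adjusted p = 0.093), nor when LNCaP control replicate 1 (-0.73) or 2 (-0.82) or 22Rv1 control replicate 3 (-0.78) was left out. ELK3 was higher in PC3 than in LNCaP (2.12 ± 0.45, adjusted p = 0.00014) and than in 22Rv1 (3.68 ± 0.58, adjusted p = 2.0e-06).

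Partners and turnover factors of ETS proteins were read in the control spheroids as well. Of 11 tested, 5 were called for PC3 against LNCaP (2 higher, 3 lower), 5 for PC3 against 22Rv1 (2 higher, 3 lower) and 3 for 22Rv1 against LNCaP (2 higher, 1 lower), which is no larger a share than that of all tested genes given above. COP1, the ligase that degrades PEA3 proteins, stood at 9.03, 2.10 and 4.34 CPM in PC3, at 51.4, 57.3 and 46.6 CPM in LNCaP and at 93.7, 86.9 and 114 CPM in 22Rv1. PC3 was thus the lowest in COP1, by a log2 difference of -3.33 ± 0.34 to LNCaP (adjusted p = 9.3e-10) and -4.27 ± 0.30 to 22Rv1 (adjusted p = 2.0e-13). CIC, a repressor of the genes ETV1, ETV4 and ETV5, had 0 counts in every PC3 siCtrl library, against 9, 12 and 15 counts in LNCaP and 8, 17 and 20 counts in 22Rv1. Taking 3 counts over the PC3 group as the limit, the CIC mean was 12.9 times that limit in LNCaP and 17.3 times in 22Rv1. These ratios leave out the counting error of LNCaP and 22Rv1. CIC passed the filter through those lines, so no p-value is given. TRIB1, a scaffold that brings substrates to COP1, was higher than in LNCaP by 1.67 ± 0.24 in 22Rv1 (adjusted p = 1.2e-06) and by 2.38 ± 0.22 in PC3 (adjusted p = 1.1e-10). The third gene lower in PC3 was GABPB2, a subunit of the GABP complex, with 3, 0 and 2 counts. Whether these genes bear on the ETS levels was not tested.

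Of 9 tested genes that ERK signaling induces, a list that holds ETV4 and ETV5 as well, 8 were called higher in PC3 than in LNCaP and none lower, and 7 higher and 1 lower in 22Rv1. Of all tested genes, 29.2% were higher and 25.5% lower in PC3 than in LNCaP, and 22.0% higher and 21.2% lower in 22Rv1. Several genes of the list were at or near 0 counts in LNCaP and passed the filter through the other lines, so that the numbers called are shaped by the filter and nothing is read from them. DUSP6, a phosphatase that inactivates ERK and is induced by it, had 0 counts in each LNCaP siCtrl library, against 12, 16 and 22 counts in 22Rv1 and 46, 69 and 63 counts in PC3. EPHA2, an ephrin receptor, stood at 9.94, 1.43 and 5.30 CPM in LNCaP, at 20.8, 16.7 and 20.5 CPM in 22Rv1 and at 237, 158 and 256 CPM in PC3. Both genes were thus lowest in LNCaP, and whether they bear on the ETS levels was not tested. DUSP6 and EPHA2 were in part picked after their values were seen. PHLDA1, an early response gene, was lowest in 22Rv1, with a log2 difference of -1.70 ± 0.25 to LNCaP (adjusted p = 1.2e-06). DUSP4 in 22Rv1 (-0.62 ± 0.37) and CCND1 in PC3 (-0.24 ± 0.13) also had lower estimates than in LNCaP, which did not pass the test (adjusted p = 0.17 and 0.10).

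The same lists were read for the knockdown. Of 14 partners and turnover factors of ETS proteins 11 were tested, among them COP1, TRIB1 and SPOP, and none was called in any line, with medians of 0.10, -0.14 and 0.31 in LNCaP, 22Rv1 and PC3. The PC3 median was 0.19 without CIC, which had too few counts there for a fold change. SPOP, a ubiquitin ligase adaptor that is mutated in prostate cancer, had log2 fold changes of 0.31 ± 0.28, 0.34 ± 0.29 and 0.31 ± 0.29. COP1 had -0.07 ± 0.22, 0.07 ± 0.19 and -0.04 ± 0.69.

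Of 10 genes that ERK signaling induces, 9 were tested, including ETV4 and ETV5, with medians of -0.11 in 22Rv1 and 0.05 in PC3. In LNCaP SPRY2, SPRY4, DUSP6, ETV4 and ETV5 had siCtrl means of at most 0.955 CPM, so no median is given for that line. PHLDA1 was lower with siMED12 in LNCaP, where it fell from 66.3, 100.3 and 91.2 CPM to 42.0, 32.0 and 49.4 CPM (log2 fold change -1.06 ± 0.22, adjusted p = 0.016). The call did not hold when replicate 2 or 3 of the controls (-0.94 and -1.01) or replicate 2 of the knockdown (-0.91) was left out. SPRY4, a feedback inhibitor of receptor tyrosine kinases, fell in 22Rv1 from 49.5, 83.6 and 94.95 CPM to 24.4 and 39.8 CPM (log2 fold change -1.26 ± 0.29, adjusted p = 0.014). SPRY4 did not pass with DESeq2 (adjusted p = 0.28), nor when replicate 2 or 3 of the controls (-1.20 and -1.05) or replicate 1 of the knockdown (-0.94) was left out. No gene of the list was called in PC3.

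Of 17 epithelial genes and genes linked to ELF3, 14 were tested, with medians of -0.24, 0.11 and -0.19. AGR2, a protein of the secretory pathway, rose with siMED12 in 22Rv1 from 380.0, 393 and 486 CPM to 971 and 890.1 CPM (log2 fold change 1.15 ± 0.17, adjusted p = 0.00012), and was the only member of the list called in a line. CLDN4, a tight junction gene, did not pass in any line, with log2 fold changes of -0.33 ± 0.22 in LNCaP, -0.34 ± 0.25 in 22Rv1 and -0.34 ± 0.24 in PC3. The keratins KRT18 and KRT8 had -0.23 ± 0.12 and -0.17 ± 0.15 in LNCaP and 0.34 ± 0.13 and 0.43 ± 0.17 in 22Rv1, and none of these passed.

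Of 10 genes of NF-kB signaling, an inducer of ELF3 in inflamed epithelium, 8 were tested and none was called, with medians of 0.08, 0.12 and -0.25. The 22Rv1 median was 0.053 over the 7 genes with enough counts there for a fold change. NFKBIA, the inhibitor that NF-kB induces, stood at means of 741 CPM with siCtrl and 354 CPM with siMED12 in 22Rv1, where its libraries did not overlap (log2 fold change -1.08 ± 0.37, adjusted p = 0.15). Its libraries overlapped in LNCaP (log2 fold change 0.03 ± 0.43) and in PC3 (-0.49 ± 0.42). Of 10 matrix protease and invasion genes, which ETS factors are known to regulate, 5 were tested. Apart from PLAU they passed the filter through PC3 and had siCtrl means of at most 5.93 CPM in LNCaP and 4.37 CPM in 22Rv1, so no median is given for those lines. PLAU, the urokinase gene, was called higher in 22Rv1 (log2 fold change 2.00 ± 0.50, adjusted p = 0.029), but its levels were 19.5, 18.4 and 20.5 CPM with siCtrl and 15.9 and 149 CPM with siMED12. The high value is that of replicate 3, the library with the highest share of PC3-restricted genes, and PC3 siCtrl spheroids had a mean of 3788 CPM of PLAU. Without replicate 3 the log2 fold change of PLAU was -0.30, and the call was lost with the estimated counts of PC3 subtracted. The call was also lost with DESeq2 (adjusted p = 0.25) and without any one of the siCtrl replicates 1, 2 and 3 (1.99, 1.96 and 2.02).

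The 5 genes whose levels followed ELF3 most closely across the 11 LNCaP and 22Rv1 libraries, each centered on the mean of its line, were LBR (r = 0.91), EIF4BP6 (r = 0.91), CCND1 (r = 0.89), PNRC1 (r = 0.89) and IRF2BP2 (r = 0.89) among 5359 genes compared. The points share libraries and treatment groups, so r is a description. IRF2BP2, a transcriptional corepressor, had log2 fold changes with siMED12 of -1.11 ± 0.15 in LNCaP, -0.29 ± 0.16 in 22Rv1 and -0.17 ± 0.22 in PC3. CCND1, which encodes cyclin D1, had -0.50 ± 0.13, -0.24 ± 0.13 and 0.01 ± 0.15. EIF4BP6 is a pseudogene of EIF4B, and how reads were divided between near-identical copies was not determined.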

How the data were processed

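RNA of 16 spheroid libraries was measured by BRB-seq, a 3′ tag method with early barcoding. The authors aligned and counted reads with STARsolo on GRCh38.p13 with Gencode release 43 and deposited raw counts per gene without normalization. Whether molecular identifiers were collapsed is not given in the sources used here. A deposited table of log2 CPM made from the same counts was not used.

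Counts were filtered with filterByExpr (minimum count 10, minimum total 15), scaled by the trimmed mean of M values and fitted by quasi-likelihood with edgeR 4.0.16 under R 4.3.3, using the 16 libraries and 6 group means together, with Benjamini-Hochberg adjustment over 10566 genes and a threshold of 0.05. The SE is the log2 fold change divided by the root of F. Replicates are those of the labels. The study describes its replicates in general as biological, the labels do not say which cultures were separate, and p-values measure the spread between these libraries.

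The members and lists were chosen with earlier results of these data known, and 1 gene of the partner list and 1 line marker are not reported here. Named are the 10 members, other ETS genes called in a contrast, the 5 genes most correlated with ELF3 (at least 20 CPM in siCtrl of LNCaP and 22Rv1), and up to 4 genes per list, either called or best expressed; NFKBIA, KRT8, SPOP, COP1, CIC, TRIB1, GABPB2, DUSP6 and EPHA2 were in part picked after their values were seen. Alternatives were relative log expression scaling, DESeq2 1.42.0, no count filter, each library left out, a replicate block, subtraction of counts attributed to other lines and, added after seeing the data, the legacy edgeR fit. The subtraction used genes with at least 200 CPM in siCtrl of their own line and at most 5 CPM in the others. LNCaP had 0 such genes, so only counts of 22Rv1 and PC3 were subtracted. Sequences are from RefSeq on GRCh38.p14. Coordinates are from Gencode release 44.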

Additional observations from a re-analysis of the deposited data

How the results depend on the processing

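ELF3 kept its negative log2 fold change in 22 of 22 alternatives in LNCaP and in 22Rv1. The choice rested on this fall and the alternatives reuse the same libraries, so the kept sign is a description and no test. Its values ran from -1.37 to -1.16 in LNCaP and from -1.002 to -0.64 in 22Rv1. The number of members counted as called in 22Rv1 ran from 0 (without siCtrl replicate 3, siMED12 replicate 1 or siMED12 replicate 3) to 1, and as the choice used this contrast, nothing is read from it. The number of genes called was 44 in LNCaP, 194 in 22Rv1 and 0 in PC3. It was 22 and 72 in LNCaP and 22Rv1 with DESeq2. With all genes that had a count it was 95 in LNCaP and 9 in PC3. It ran from 12 (without LNCaP siMED12 replicate 2) to 55 in LNCaP, from 74 (without 22Rv1 siMED12 replicate 1) to 220 in 22Rv1 and from 0 to 3 (without PC3 siCtrl replicate 2) in PC3 when single libraries were left out. With the replicate block it was 117, 312 and 20. Deviations of libraries with the same number correlated at 0.087 to 0.127 in LNCaP, 0.161 and 0.214 in 22Rv1 and 0.052 and 0.073 in PC3. In each line every siMED12 library correlated best with the siCtrl library of its own number. The deviations of the 2 siMED12 libraries mirror each other in 22Rv1 and in PC3. The main fit did not take the numbers as pairs, and whether they mark pairs was not tested. The replicate block changed no call of a member, and the PC3 estimates of EHF (-0.0714) and ERF (-0.0118) turned negative under it.

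Of 704 values of members in the tested contrasts under the alternatives, 17 changed sign, all of differences that did not pass the test, and 3 came past the threshold (ELF1 against LNCaP in 22Rv1 and PC3, and SPDEF between PC3 and 22Rv1). In the LNCaP and 22Rv1 knockdown contrasts 11 of 352 values changed sign, those of ELF1, SPDEF, ETV4 and ERF in LNCaP and of EHF, ETS2 and ERF in 22Rv1. Leaving out single libraries moved the PC3 estimates of ELF3 from -0.37 to 0.0069, EHF from -0.52 to 0.35, ELF1 from -0.36 to 0.47, ETV1 from -0.64 to 0.39 and ERF from -0.0113 to 0.39, the ERF difference of PC3 against LNCaP from -0.17 to 0.32 and the ELF1 difference of PC3 against 22Rv1 from -0.62 to 0.39. Counts of 0 to 20 for ELF1, ETS1 and, in LNCaP, ETV4 and ETS2 limit what these libraries can show.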
